A study of Homo sapiens with 10 samples.

Results

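SALL1, SALL2 and SALL3 are 3 of the 4 human SALL genes, and their expression and promoter contacts are described here in embryonic stem cells (ESCs) and in neuroectodermal cells (NECs). The members were the 3 rows of the RNA-seq count table, out of 31017, that carry these symbols, and the 3 baited promoter fragments, out of 21833, that hold the start of each gene. The ESCs were the H9 line, which is a single line grown undifferentiated, and the NECs were derived from H9 by differentiation for 7 days. Promoter Capture Hi-C (PCHi-C, which enriches ligation products that contain a promoter) and polyadenylated RNA-seq were each made from 2 biological replicates of each cell type. ESC replicate 2 of the PCHi-C combined technical replicates. The labels name no transgene and no edited allele in either cell type.

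SALL proteins are large zinc finger transcription factors named after the Drosophila spalt gene, and they carry pairs of C2H2 zinc fingers along the protein. A short amino-terminal motif lets several of them bind the NuRD complex, which combines nucleosome remodelling with histone deacetylation. SALL4 is best known for its role in pluripotent cells, SALL1 for kidney, limb and ear development and for the Townes-Brocks syndrome, SALL2 for eye development, and SALL3 for the development of cranial nerves and other neural tissue.

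RNA reads counted on genes totalled 19234087 and 25356382 in the ESC libraries and 20793224 and 24323762 in the NEC libraries, and 17564 genes passed the filter on low counts. Of the markers fixed for the check of cell identity, 8 of 10 pluripotency genes fell and 9 of 10 neuroectoderm genes rose in NECs (beside 9.68% of all tested genes called lower and 11.4% called higher), where POU3F2 reached 348-fold its ESC level. OTX2 had a log2 fold change of -1.33. The summed level of the pluripotency list went from 5984 and 6295 CPM (counts scaled to a common library size) in ESCs to 1206 and 1722 in NECs. The neural crest list (6 of 10 up, 1 down) summed to 149 and 137 CPM in ESCs against 269 and 132 in NECs, the mesendoderm list (7 of 8 tested down, 4 without ESC replicate 2) to 39.7 and 108 CPM against 7.96 and 6.04, and the neuron list (6 of 9 tested up) to 267 and 280 CPM against 351 and 316. No marker of these lists was at 0 in both NEC libraries, and HES5 and NEUROD1 were at 0 in both ESC libraries. The part of these marker levels in the SALL values was not tested. In bulk RNA, a change in the share of cells that express a gene and a change in RNA per cell cannot be told apart. By the labels each cell type had a lane of its own on the sequencer, so lane and cell type cannot be told apart either.

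The sequences on which the contact data rest are the cut ends of the fragments. PCHi-C joins fragments at sites of the restriction enzyme HindIII, and a call links a bait with a promoter-interacting region (PIR), the fragment at the other end. The 40 bases at each end of a fragment are printed below from the plus strand of GRCh37, 5′ to 3′, for the bait of each gene and for its highest-scoring PIR, with the HindIII site in capitals. The SALL1 bait, chr16:51183511-51187847, and its PIR at chr16:51666710-51673598 have these ends:

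SALL1 bait, left end: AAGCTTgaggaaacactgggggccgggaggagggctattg

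SALL1 bait, right end: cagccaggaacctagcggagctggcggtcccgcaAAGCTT

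SALL1 PIR, left end: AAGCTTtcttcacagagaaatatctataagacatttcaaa

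SALL1 PIR, right end: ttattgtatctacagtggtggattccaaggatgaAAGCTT

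The SALL2 bait, chr14:22002312-22007106, and its PIR at chr14:22024379-22026976 have these ends:

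SALL2 bait, left end: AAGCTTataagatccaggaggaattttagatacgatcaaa

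SALL2 bait, right end: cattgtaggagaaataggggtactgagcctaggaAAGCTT

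SALL2 PIR, left end: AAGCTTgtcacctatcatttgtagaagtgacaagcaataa

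SALL2 PIR, right end: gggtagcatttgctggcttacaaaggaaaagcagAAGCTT

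The SALL3 bait, chr18:76727199-76741933, and its PIR at chr18:75820732-75830148 have these ends:

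SALL3 bait, left end: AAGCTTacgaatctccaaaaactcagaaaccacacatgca

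SALL3 bait, right end: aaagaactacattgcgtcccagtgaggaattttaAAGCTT

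SALL3 PIR, left end: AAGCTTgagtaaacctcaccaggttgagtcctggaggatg

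SALL3 PIR, right end: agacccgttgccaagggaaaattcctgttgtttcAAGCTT

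The baits differed in length and base composition. The SALL1 bait has 4337 bases with 63.9% G and C, the SALL2 bait 4795 bases with 45.4%, and the SALL3 bait 14735 bases with 55.7%. The start of the lncRNA ENSG00000285367 also lies in the SALL1 bait and that of LINC01896 in the SALL3 bait, so the contacts of these baits cannot be given to a single gene start.

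The promoters of SALL2 and SALL3 differ sharply in sequence. RefSeq promoter sequences (assembly GRCh38.p14, 250 bases before to 50 after the start) were held for these 2 of the 3 genes, and each occurred once in the GRCh37 chromosome, inside its bait. Relative to the gene start of the count table, the RefSeq start lay at 95 for SALL2 and at -457 for SALL3. Starts of SALL2 transcripts in a further bait, chr14:21982726-21996799, are not covered by its window. The 2 sequences are shown because that of SALL1 was not held, and a link between promoter sequence and RNA change was not tested. Capitals mark the TATA box letters TATAAA, the GC box letters GGGCGG and the letters ATTGG of the CCAAT box, searched on both strands.

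SALL2 promoter, chr14:22005206-22005505 in GRCh37, minus strand: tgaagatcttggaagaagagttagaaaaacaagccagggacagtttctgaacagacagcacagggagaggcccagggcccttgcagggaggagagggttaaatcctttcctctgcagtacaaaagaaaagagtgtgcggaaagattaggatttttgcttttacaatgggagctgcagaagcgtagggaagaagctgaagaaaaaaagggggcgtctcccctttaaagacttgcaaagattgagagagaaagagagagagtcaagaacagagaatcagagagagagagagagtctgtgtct

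SALL3 promoter, chr18:76739568-76739867 in GRCh37, plus strand: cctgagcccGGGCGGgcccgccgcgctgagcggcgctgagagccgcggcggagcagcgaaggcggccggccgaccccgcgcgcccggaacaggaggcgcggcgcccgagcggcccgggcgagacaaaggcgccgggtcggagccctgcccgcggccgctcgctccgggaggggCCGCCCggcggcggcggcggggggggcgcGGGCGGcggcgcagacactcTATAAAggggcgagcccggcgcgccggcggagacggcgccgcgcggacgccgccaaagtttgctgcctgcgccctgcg

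The SALL2 promoter held 3 CpG dinucleotides and 46.0% G and C, and 18.2% of the 35116 RefSeq promoters held fewer CpGs. The SALL3 promoter held 59 CpGs and 83.0% G and C, and 99.9% of promoters held fewer CpGs. In the SALL3 promoter TATAAA began at base -28 from the RefSeq start, and GGGCGG or its complement CCGCCC at -241, -77 and -48. The SALL2 window held none of the 3 motifs, and ATTGG was absent from the SALL3 window too. Of all these promoters, TATAAA was held by 11.5%, GGGCGG by 45% and ATTGG by 34.6%.

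SALL1 RNA rose 2.88-fold between ESCs and NECs, SALL2 RNA was 1.59-fold higher, and SALL3 RNA was 2.66-fold lower. Calls needed an adjusted p (Benjamini-Hochberg, edgeR's quasi-likelihood test) under 0.05 and a log2 fold change beyond 1.5 in either direction. At these thresholds 11.4% of tested genes were called higher in NECs, 9.68% were called lower and 21.0% were called in either direction. Of the 3 members, 1 was called, SALL1. By the adjusted p alone SALL1 and SALL2 were higher, as were 31.5% of tested genes, and SALL3 was lower, as were 29.7%, together 61.1%.

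SALL1 (ENSG00000103449, chr16:51169886-51185181, minus strand, GRCh37) had 1337 and 1358 counts in ESC replicates 1 and 2, and 3331 and 5087 in NEC replicates 1 and 2. On the CPM scale, normalized by TMM, these were 70.8, 54.9, 156 and 206. Both NEC libraries lay above both ESC libraries, and the NEC libraries were the farther apart. The means were 62.9 ± 11.2 CPM in ESCs and 181 ± 35.6 CPM in NECs (SD, n = 2 each). The log2 fold change was 1.53 ± 0.18 (SE), at an edgeR adjusted p of 0.000607. This lies just past the fold threshold, and without ESC replicate 2 it was 1.35 and without NEC replicate 2 it was 1.31, both under the threshold with the adjusted p still under 0.05. DESeq2 with shrunken fold changes gave 1.49. Of all tested genes, 20.9% changed by more in either direction.

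SALL2 (ENSG00000165821, chr14:21989232-22005350, minus strand) was the most abundant member in counts, CPM and RPKM, with 6529 and 8366 counts in the ESC libraries and 10930 and 14198 in the NEC libraries. In CPM these were 346, 338, 511 and 575. The groups did not overlap, and the ESC libraries were close to each other. The means were 342 ± 5.30 CPM in ESCs and 543 ± 45.3 CPM in NECs (SD, n = 2 each), with log2 fold change 0.67 ± 0.10 (SE), at an edgeR adjusted p of 0.00203. That is past the adjusted p but not the fold threshold, and 47.0% of all tested genes changed by more. The lncRNA AE000658.22, which lies antisense to the 3′ part of SALL2, had 514, 677, 758 and 1031 counts and a log2 fold change of 0.50. The counting did not use strand, so reads of SALL2 and AE000658.22 cannot be told apart where they overlap.

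SALL3 (ENSG00000256463, chr18:76740275-76757397, plus strand) had 867 and 1116 counts in ESCs and 339 and 453 in NECs. In CPM the ESC libraries stood at 45.9 and 45.1 and the NEC libraries at 15.9 and 18.4. The replicates lay close together in both cell types, and every NEC library was below every ESC library. The means were 45.5 ± 0.559 CPM and 17.1 ± 1.77 CPM (SD, n = 2 each), with log2 fold change -1.41 ± 0.11 (SE), at an edgeR adjusted p of 0.000171. It missed the fold threshold, and passed it without NEC replicate 2, where it was -1.52. Of all tested genes, 22.8% changed by more.

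SALL4 (ENSG00000101115, chr20:50400581-50419014, minus strand), the remaining gene of the family, had 3653 and 5184 counts in ESCs and 2815 and 3529 in NECs. Its mean went from 202 ± 11.4 to 137 ± 8.0 CPM (SD, n = 2 each), or -0.55 ± 0.09 (SE) as log2 fold change, at an edgeR adjusted p of 0.00270. Like SALL3 it was lower in NECs, opposite to SALL1 and SALL2. The annotation lists 6 SALL pseudogenes, 1 of SALL1 and the others of SALL4, and 0 of them have a row in the count table under these names, so how reads shared with them were counted is uncertain.

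**Figure D1:**
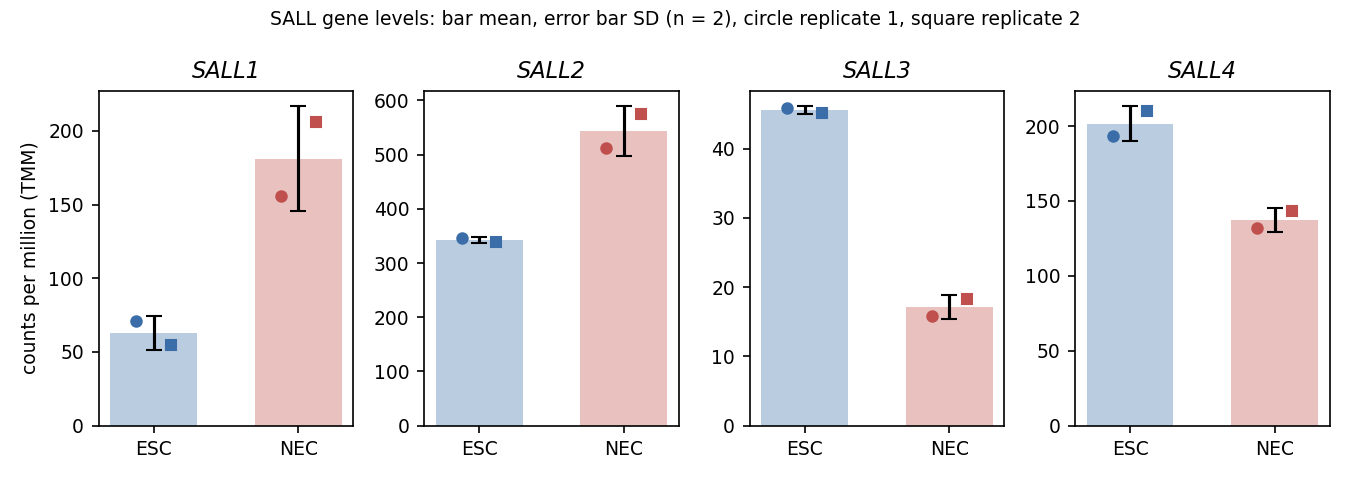
CPM of SALL1, SALL2, SALL3 and SALL4 in ESCs and NECs, with a y axis for each gene; bars are means, error bars the SD of 2 replicates, circles replicate 1 and squares replicate 2. SALL1 and SALL2 stood higher and SALL3 and SALL4 lower in both NEC libraries than in both ESC libraries.

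To compare levels between genes, counts were divided by the summed exon length of each gene in the annotation (RPKM, the CPM for each kilobase of exon). In ESCs SALL2 had 63.8 ± 0.988 RPKM, SALL4 34.9 ± 1.98, SALL1 9.98 ± 1.78 and SALL3 6.65 ± 0.0816 (SD, n = 2 each). SALL1 and SALL3 were the closest neighbours in that order, and their libraries did not overlap, at 11.2 and 8.72 against 6.71 and 6.59 RPKM. In NECs the order became SALL2 with 101 ± 8.43 RPKM, SALL1 with 28.7 ± 5.64, SALL4 with 23.8 ± 1.39 and SALL3 with 2.50 ± 0.258. SALL1 and SALL4 overlapped there, because SALL1 stood at 24.7 and 32.7 RPKM and SALL4 at 22.8 and 24.8, so their order is not beyond the replicate spread.

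Among the 14592 tested protein-coding genes, SALL1 moved from percentile 69.5 to percentile 90.7 of RPKM, and SALL3 from percentile 59.5 to percentile 35. SALL2 was at percentile 96.0 in ESCs and 98.1 in NECs. SALL1 took 9.69% and 7.60% of the summed RPKM of the 4 SALL genes in the ESC libraries, and 17% and 19.5% in the NEC libraries. SALL3 took 5.78% and 5.75% in ESCs and 1.60% in each NEC library. SALL2 took 55.6% and 55.0% in ESCs and 65.7% and 64.1% in NECs, and SALL4 28.9% and 31.7% against 15.7% and 14.8%. SALL2 was the largest part of the family RNA in every library, and SALL1 passed SALL4 in share in both NEC libraries.

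**Figure D2:**
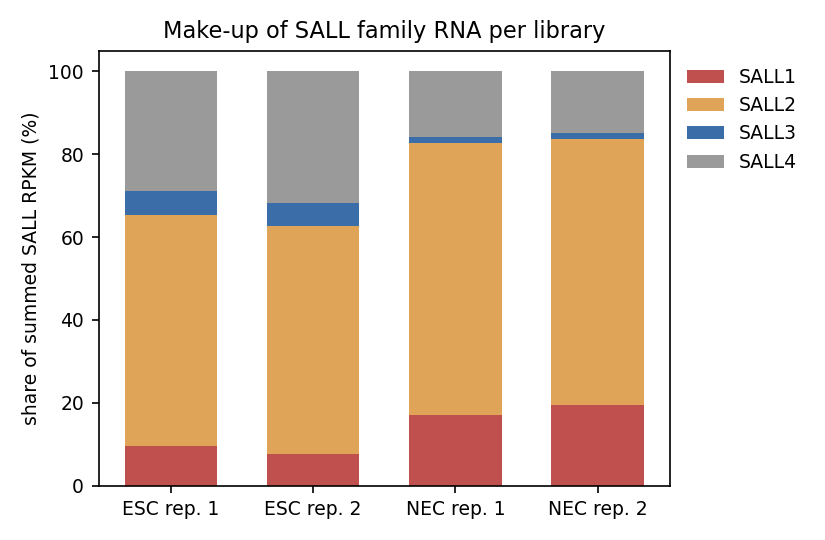
Share of the summed RPKM of the 4 SALL genes taken by each gene, in percent, in each of the 4 libraries. SALL2 held 55.0% or more everywhere, SALL1 grew from under 10% to 17% and 19.5%, and SALL3 shrank to 1.60%.

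The genes with levels most like each member over the 4 libraries, by Euclidean distance of log2 CPM among protein-coding genes, were TSPAN18 (distance 0.37), IDH2, ASXL1, H2AFY2 and SHROOM3 for SALL1. For SALL2 they were CALM2 (0.22), PTPRZ1, HNRNPA3, RPL22 and RBMX. For SALL3 they were GRPEL2 (0.047), NDUFAF4, DNAH11, RNASEH2B and RCHY1. SALL1 lay farther from its nearest gene than SALL2 and SALL3 did from theirs.

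None of the genes of NuRD, the corepressor that SALL proteins bind, was called. All 15 subunit genes were tested and 0 of 15 were called with edgeR, beside 21.0% of all genes, and DESeq2 also called 0. The number with an unadjusted p under 0.05 was 9, and the share of all tested genes at that threshold is not given here. By adjusted p alone 4 were higher and 4 lower in NECs, beside 31.5% and 29.7% of all tested genes, and the median log2 fold change was -0.06 beside 0.01 over all tested genes.

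Among the ATPases, CHD3 was highest of the list in its change, with 51.3 ± 7.18 CPM in ESCs and 101 ± 7.89 CPM in NECs (SD, n = 2 each) and log2 fold change 0.97 ± 0.12 (SE), at an edgeR adjusted p of 0.000898. CHD5, a paralogue best known from neurons, was lowest, with 41 and 51 counts in ESCs, 16 and 22 in NECs and log2 fold change -1.36 ± 0.30 (SE), at an edgeR adjusted p of 0.00837. CHD4, the most abundant of the subunit genes in CPM, had 574 and 615 CPM as the means of ESCs and NECs and a log2 fold change of 0.10. The histone deacetylase genes HDAC1 (0.14) and HDAC2 (-0.19) and the histone chaperone genes RBBP4 (0.33) and RBBP7 (0.46) had small log2 fold changes, of which the last 2 passed the adjusted p. The paralogous scaffold genes GATAD2A (-0.48) and GATAD2B (0.69) moved in opposite directions, both past the adjusted p.

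**Figure D3:**
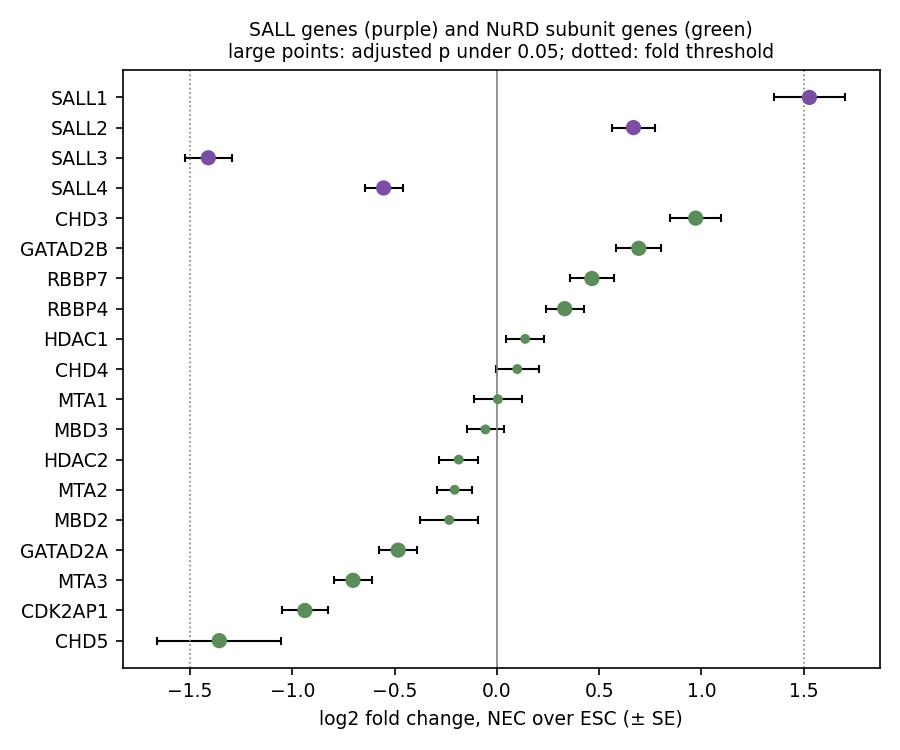
Log2 fold changes (NEC over ESC, error bars SE) of the 4 SALL genes in purple and 15 NuRD subunit genes in green; large points passed an adjusted p of 0.05 and dotted lines mark 1.5 and -1.5. SALL1 alone lies past a dotted line, and the NuRD genes run from -1.36 for CHD5 to 0.97 for CHD3.

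SALL1 is known from the nephron progenitors of the kidney, where it acts with SIX2, and 10 regulators of those cells were listed. Of these, 8 were tested, 6 were called higher and 1 lower in NECs, beside 11.4% and 9.68% of all tested genes. The median log2 fold change was 2.99 with genes at the count floor set to their bounds, and 3.74 as fitted. A floor of 3 counts in each library was used where both ESC libraries had 3 counts or fewer. The paired-box factor gene PAX8 had 1 and 0 counts in ESCs and 412 and 399 in NECs, at least 126-fold higher. PAX2, another paired-box gene, had 0 and 0 against 130 and 69 counts, at least 31.7-fold higher, and the homeobox gene MEOX1 had 0 and 1 against 63 and 34, at least 15.4-fold higher.

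Of the others, SIX2 had few reads, with 14 and 18 counts against 10 and 16, and a log2 fold change of -0.38 (adjusted p = 0.406). The gene for the growth factor GDNF was the one called lower, with 44 and 60 counts against 8 and 10. WT1, with 2 and 2 counts against 0 and 1, and OSR1, with 1 and 1 against 11 and 4, were too low to be tested. PAX2 and PAX8 are used in neural and sensory tissue too, and kidney cell identity was not tested here. Their levels in NECs, at most 412 counts, were below those of SALL1.

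Among the tested neighbours of SALL1, SALL2 and SALL3, 2 of 6, 1 of 22 and 0 of 4 were called, beside 21.0% of all tested genes. Around SALL1, 8 genes of the count table started within 1 Mb and 6 were tested, all on its 3′ side. NKD1, an inhibitor of WNT signalling that starts 603 kb away, was called higher, with 129 and 214 counts in ESCs and 1128 and 524 in NECs and log2 fold change 2.25 ± 0.42 (SE), at an edgeR adjusted p of 0.00409. AC007608.1 was the other gene called higher, from 3 and 4 counts to 25 and 11. Both DESeq2 fits called 1 of these 6 genes, and edgeR called 0 without NEC replicate 1 and 1 without either ESC replicate.

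Around SALL2, 162 genes started within 1 Mb, among them many olfactory receptor, ribonuclease and T cell receptor segments, and 22 were tested. RPGRIP1, a gene of photoreceptor cilia, was called lower, with 18 and 25 counts in ESCs and 1 and 8 in NECs, and neither DESeq2 fit nor the fit without ESC replicate 2 called it, which left 0 called. Around SALL3, 7 genes started within 1 Mb, 4 were tested and 0 were called with edgeR or DESeq2. All 4 had an unadjusted p under 0.05, and they passed the adjusted p too, as did 61.1% of all tested genes. ATP9B (0.68), NFATC1 (0.80) and PQLC1 (1.34) had positive log2 fold changes and CTDP1 a negative one (-0.70).

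The SALL1 and SALL3 baits had more PIRs in both NEC replicates than in both ESC replicates, and the SALL2 bait did not. The authors scored each pair of fragments with CHiCAGO, whose score is a negative log of a weighted p-value, and the lists hold pairs that scored 12 or more, in each replicate and in the 2 replicates combined (merged). The read numbers behind the scores are not in these lists, so their depth is unknown. With 2 replicates against 2 a permutation test cannot give a p under 0.05, and none was made.

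Merged calls gave the SALL1 bait 4 PIRs in ESCs and 7 in NECs. Its single replicates had 4 and 2 against 7 and 15, and the NEC replicates were far apart. The SALL3 bait had 1 PIR in merged ESC calls and 5 in merged NEC calls, and its single replicates had 1 and 2 against 8 and 5. For both baits the replicates of the cell types did not overlap, which held in this direction for 13.2% of 21768 baits, and for 12.9% in the other direction. The SALL2 bait had 2 and 5 merged PIRs, and single replicates gave 0 and 5 in ESCs but 4 and 3 in NECs, which overlap. More merged PIRs in NECs than in ESCs, as at all 3 baits, were found at 43.3% of baits with a call, and fewer at 41.7%. The SALL4 bait had 4 and 3 merged PIRs, and 2 and 9 (ESC) or 8 and 6 (NEC) in single replicates.

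**Figure D4:**
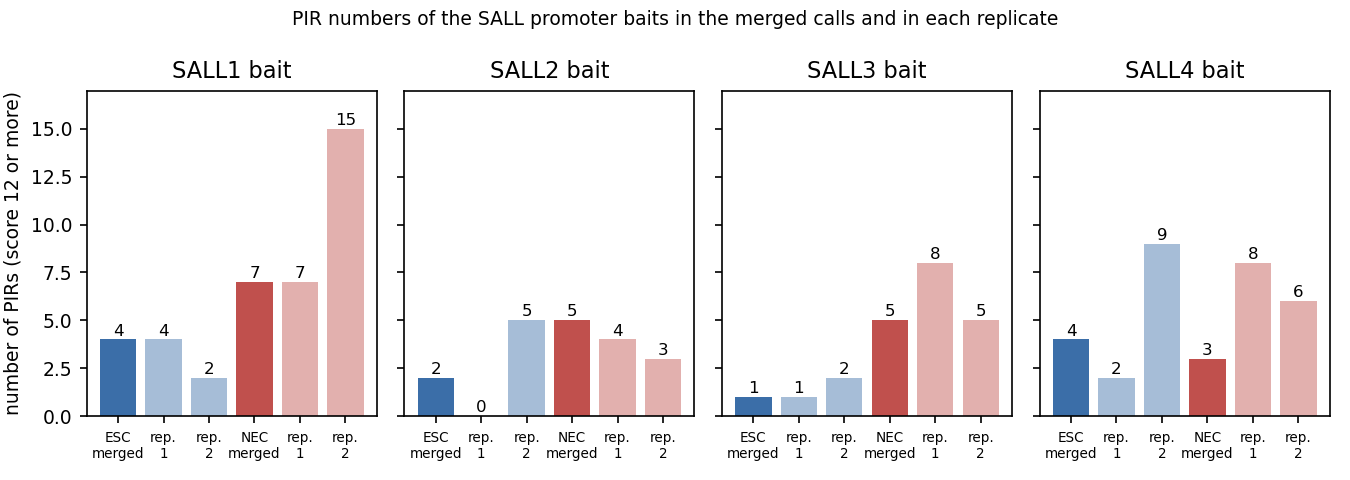
Number of PIRs with a CHiCAGO score of 12 or more at the 4 SALL baits, for the merged calls and for each replicate of ESCs (blue) and NECs (red). At SALL1 and SALL3 both NEC replicates stand above both ESC replicates, while at SALL2 and SALL4 the replicates overlap.

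The 4 ESC and 7 NEC PIRs of SALL1 shared 2 fragments, which is 50% of its ESC list, beside 44.2% over all baits, and 28.6% of its NEC list, beside 44.3%. Of its 9 fragments in either list these are 22.2%, beside 28.4% over all baits. The strongest was the fragment at chr16:51666710-51673598, whose ends are printed above. It lies 484.5 kb upstream of the bait in an intron of HNRNPA1L3 and was itself baited, although no annotated gene starts in it. Its score was 25.94 in merged ESC calls and 29.63 in merged NEC calls, and in single replicates 23.74 and 20.68 (ESC) or 21.88 and 21.42 (NEC). It was the sole SALL1 PIR called in all 4 replicates, as were 5.06% of all merged calls. Of the merged ESC PIRs, 1 of 4 at SALL1, 0 of 2 at SALL2 and 0 of 1 at SALL3 were called in both ESC replicates, beside 22.9% of all merged ESC calls. From its own bait the contact with SALL1 scored 12.03 in merged ESC and 16.98 in merged NEC calls. Only 1.51% of merged NEC calls scored as high as the 29.63 called from the SALL1 bait.

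A group of 7 fragments between 598.1 and 617.3 kb upstream, around the lncRNA gene LINC01571, held the other shared contact. That fragment, chr16:51795390-51799508, scored 14.94 in merged ESC and 14.11 in merged NEC calls, with 19.01 in ESC replicate 1, 22.99 in NEC replicate 2 and no call in the other 2 replicates. The group held 2 PIRs in merged ESC and 4 in merged NEC calls. Between 209.7 and 319.5 kb upstream, by contrast, 5 PIRs were called in NECs and 0 in ESCs, and all 5 came from NEC replicate 2. Of these, chr16:51391878-51398907, which holds an exon of ENSG00000285367, scored 13.84 in merged NEC calls and 18 in NEC replicate 2.

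The study linked elements of the VISTA enhancer collection to promoters by their overlap with PIRs, and 2 elements of its list carry SALL1 as a target. Since that link was made from these calls, the overlap of the elements with SALL1 PIRs is no result. Both PIRs below were picked for having a merged NEC call, so that call is no result either. Neither was in merged ESC calls. The PIR at chr16:51490968-51493859, in an intron of ENSG00000260850, scored 12.89 in merged NEC calls and 13.95 in NEC replicate 2. The PIR at chr16:51780938-51786552, outside annotated genes, scored 12.40 in merged NEC calls, 12.45 in NEC replicate 1 and 12.14 in NEC replicate 2, close to the threshold each time. The element behind it extends into the next fragment, which scored 12.45 in NEC replicate 1. The 300 bases at the centre of each overlap are shown as examples of SALL1-contacting sequence that lies in a catalogued element, although these PIRs scored far below the one called in all 4 replicates. They were searched on both strands for TAATTA, a core of homeodomain sites, and ACAATG, a core of SOX sites, and since neither occurred there are no capitals.

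SALL1 upstream element, chr16:51492262-51492561, plus strand: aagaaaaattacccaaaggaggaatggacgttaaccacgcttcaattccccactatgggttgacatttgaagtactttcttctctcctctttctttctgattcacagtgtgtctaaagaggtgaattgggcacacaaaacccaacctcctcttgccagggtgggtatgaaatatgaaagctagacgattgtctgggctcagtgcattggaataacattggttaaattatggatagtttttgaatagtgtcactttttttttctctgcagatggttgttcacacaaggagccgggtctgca

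SALL1 far upstream element, chr16:51786216-51786515, plus strand: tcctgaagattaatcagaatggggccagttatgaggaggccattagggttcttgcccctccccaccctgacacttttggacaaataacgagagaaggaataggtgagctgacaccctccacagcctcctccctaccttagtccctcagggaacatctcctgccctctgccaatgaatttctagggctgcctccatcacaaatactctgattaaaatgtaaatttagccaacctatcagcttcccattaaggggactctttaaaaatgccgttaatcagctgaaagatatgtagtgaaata

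These windows had 41.7% and 45.7% G and C, beside a median of 45.7% in the central 300 bases of 8830 fragments called as PIRs on the chromosomes of the 4 SALL genes. In those windows TAATTA occurred in 9.08% and ACAATG in 14.6%.

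All merged SALL1 PIRs lay upstream of the gene, 4 of 4 in ESCs and 7 of 7 in NECs, and so did 19 of the 21 fragments in any list. Over all baits with a single gene start in the count table, 50.1% of merged ESC and 49.2% of merged NEC calls lay upstream. Of such baits with 5 or more merged NEC PIRs, 14.3% had all of them upstream. The SALL1 bait has a single start by that count, but the start of ENSG00000285367 also lies in it. This lncRNA extends to the same side, with an exon in the PIR 209.7 kb upstream, so the side cannot be given to SALL1 alone. The 2 downstream fragments were in NEC replicates alone, one of them the bait of BRD7, a bromodomain gene, with a score of 14.55 in NEC replicate 1. BRD7 RNA had a log2 fold change of 0.74. Of the 21 fragments, 16 were called in 1 replicate and 5 in 2 or more. Merged calls lay a median of 543.8 kb (ESC) or 598.1 kb (NEC) away, and 15.2% of all merged NEC calls reached farther than the latter.

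SALL3 had no PIR in common between its 1 ESC and 5 NEC merged calls. Its NEC PIRs were all upstream and far away, from 891.1 to 1256 kb with a median of 909.1 kb, and 6.99% of all merged NEC calls reached farther. The strongest, chr18:75820732-75830148, scored 15.13 in merged NEC calls and 15.58 in NEC replicate 1. The next, at chr18:75477468-75479788, scored 14 and 13.59 in the same lists, and chr18:75834123-75836956 scored 13.73 and 13.85. None of the 5 was called in both NEC replicates, whereas 21.1% of merged NEC calls were.

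Joining PIRs of SALL3 with gaps of 20 kb or less, a rule set after the calls were seen and one that can only raise overlap between replicates, gave a stretch of 25.4 kb between 891.1 and 909.1 kb upstream with 3 PIRs in NEC replicate 1, 2 in NEC replicate 2, 3 in the merged NEC calls and 0 in every ESC list. A second stretch of 33.9 kb, 1096 to 1122 kb upstream, had 1 PIR in each ESC replicate, 2 in NEC replicate 2, 1 in the merged NEC calls and 0 in NEC replicate 1. Of the 17 fragments in any list, 16 lay outside annotated genes, and the exception was a fragment of NFATC1 in ESC replicate 2. None held a gene start or was a bait. The single merged ESC PIR, chr18:76406020-76410633, scored 12.08 and was called in neither replicate. The bait of ZNF236, a zinc finger gene 2195 kb away, reached the SALL3 bait with 12.03 in merged NEC calls and 16.4 in NEC replicate 1.

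SALL2 contacts lay near the gene in merged NEC calls but mostly far from it in single replicates. Of the 15 fragments in any list 9 lay 130.4 to 1415 kb away, and of the 12 called in a replicate 9 lay that far, among them all 5 of ESC replicate 2. NEC replicate 1 had PIRs at 1187 and 1008 kb, and NEC replicate 2 at 448.1 and 1276 kb. The PIRs of the merged NEC calls lay 14.95 to 45.24 kb from the bait with a median of 26.74 kb. Of all merged NEC calls, 92.3% reached farther than this median. The nearest PIR, chr14:21982726-21996799, overlaps SALL2 itself, scored 12.09 and was called in neither NEC replicate. The strongest, chr14:22024379-22026976, lies 20.97 kb upstream outside annotated genes. It scored 14.03 in merged ESC and 18.47 in merged NEC calls and was the sole shared PIR, but among the replicates it was called in NEC replicate 1 alone, with 13.54. The next, chr14:21962358-21967035 in METTL3 and TOX4, scored 15.35 in merged NEC calls and 12.98 in NEC replicate 2. Of the 5 merged NEC PIRs, 3 were in neither NEC replicate, beside 26.1% of all merged NEC calls. The other merged ESC PIR, chr14:21871785-21876829 in CHD8, scored 12.04 and 14.38 in ESC replicate 2.

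Calls from other promoters added contacts to the SALL2 bait. In merged NEC calls the bait of HNRNPC, which encodes an RNA-binding protein, reached it over 266.9 kb with a score of 14.56, and with 17.47 in NEC replicate 2. That of CHD8, a chromatin remodeller gene, scored 13.1, and the shared bait of RAB2B and TOX4 scored 12.18 in merged ESC and 12.74 in merged NEC calls. In merged ESC calls the bait at chr14:22065499-22082209 scored 13.7, and that of EDDM3B, 766.7 kb away, scored 12.12. Counting calls from either end, a choice made after seeing the data, gave SALL2 5 contacts in ESCs and 8 in NECs. RNA of 4 partners differed little or not past the fold threshold, with log2 fold changes of -0.01 for HNRNPC, -0.39 for CHD8, 0.56 for RAB2B and 0.21 for TOX4. EDDM3B had 0 counts in every library. A further bait, chr14:21982726-21996799, is the merged NEC PIR at 14.95 kb and reached the SALL2 bait with 12.22 in merged NEC calls. It holds starts of SALL2 transcripts inside the gene and had 3 merged PIRs in ESCs and 4 in NECs.

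**Figure D5:**
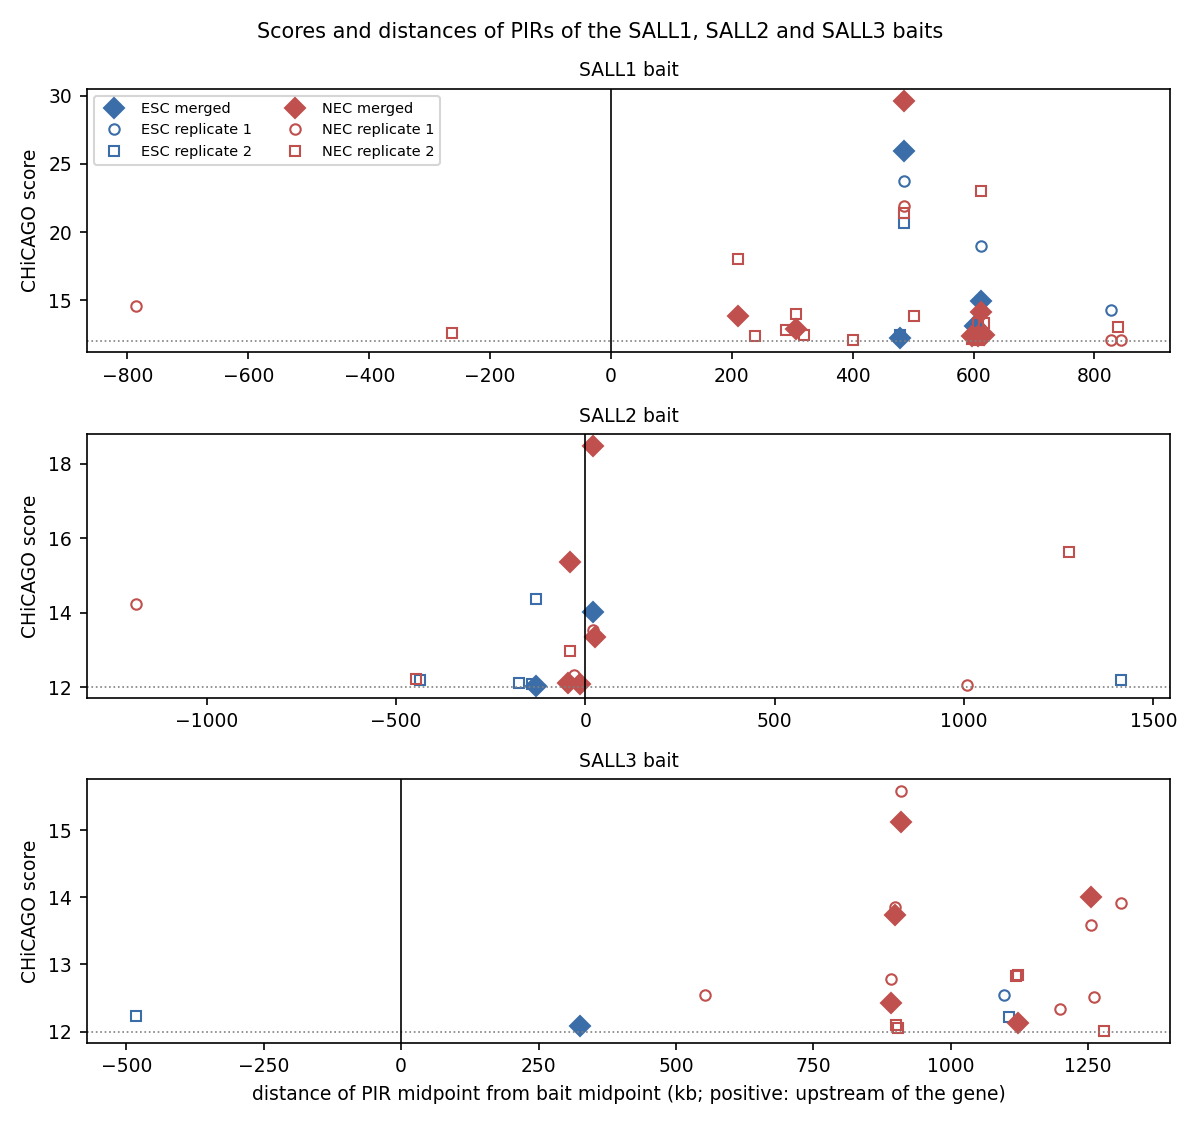
CHiCAGO scores of the PIRs of the SALL1, SALL2 and SALL3 baits against their distance in kb from the bait, upstream to the right; filled diamonds are merged calls, open circles replicate 1 and open squares replicate 2, ESCs blue and NECs red, and the dotted line marks the threshold of 12. The SALL1 contact at 484.5 kb is high in all lists, the merged NEC contacts of SALL2 lie near the bait while most of its replicate calls lie 130.4 kb away or farther, and the NEC contacts of SALL3 lie 891.1 kb away or farther, except for 1 of NEC replicate 1 at 552.4 kb.

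SALL1 was higher in RNA and in PIR number in NECs, SALL3 was lower in RNA and higher in PIR number, and SALL2 was modestly higher in RNA with overlapping PIR numbers. At a score of 15 or more the PIR numbers in ESCs and NECs were 1 and 1 for SALL1, 0 and 2 for SALL2 and 0 and 1 for SALL3. With 3 genes no relation was tested. No contact with another chromosome was called at any of the 3 baits in any list.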

How the data were processed

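The authors trimmed the RNA reads, mapped them to GRCh37 with TopHat and counted them per Ensembl gene in SeqMonk without strand, and the deposited counts are not normalized. Per the labels' processing notes, Bowtie 1.0.0 and TopHat2 2.0.8b were used. For PCHi-C the authors mapped reads with HiCUP and deposited a CHiCAGO score of 12 or more for each called pair of HindIII fragments. Conventional Hi-C was not analysed here.

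Counts were tested over the whole table with edgeR 4.0.16 in R 4.3.3 (filterByExpr, minimum count 10, TMM, quasi-likelihood test, Benjamini-Hochberg adjustment), with DESeq2 1.42.0 as an alternative, and the scripts were tested on simulated data. Nearest genes used log2 CPM with a pseudocount of 0.5. Scores were read in Python 3.11.15 with pandas 2.3.3, calls from bait to PIR being used and the reverse copies left out. Positions and gene names come from GRCh37 and its GENCODE annotation, promoters from RefSeq.

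The members, lists and named genes were chosen with earlier results of these data known. Named were the members and SALL4, called list members with the largest changes, the NuRD extremes, called neighbours, genes at baits and PIRs, the 5 nearest genes, and the leading PIRs. A gene that the rule would name is not reported here. Some further list members and neighbours were named after their values were seen. Alternatives were other normalizations, filters, thresholds and shared-PIR rules, the replicate block and each replicate left out.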

Additional observations from a re-analysis of the deposited data

How the results depend on the processing

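Of 240 alternative values for 27 results, 183 kept their direction and their side of the threshold, or stayed within 1.5 times a count, and none changed sign. Under adjusted p alone SALL2 (0.67) and SALL3 (-1.41) passed, and the genes called were 5529 higher and 5209 lower over all genes, 8 in NuRD, and 6, 10 and 4 around SALL1, SALL2 and SALL3. DESeq2 with shrunken fold changes gave 1.49 for SALL1, and both DESeq2 fits called 1 gene around SALL1 and 0 around SALL2. Leaving out each RNA library gave log2 fold changes of 1.31 to 1.71 for SALL1, 0.58 to 0.74 for SALL2 and -1.52 to -1.32 for SALL3, 0 to 2 calls around SALL1, 0 to 1 around SALL2 and 4 (without ESC replicate 2) to 8 in the mesendoderm list. At a score of 15 or more SALL1 had 1 PIR in ESCs, 1 in NECs and 1 shared, SALL2 had 0, 2 and 0, SALL3 had 0 and 1, and 1329 baits had more PIRs in both NEC and 947 in both ESC replicates. PIRs within 10 kb counted as shared gave 4 for SALL1, baits of any transcript start 4 for SALL2 in ESCs, and calls from either end 5 and 8 for SALL2. With 1 replicate in place of the merged calls, SALL1 had 2 to 4 PIRs in ESCs, 7 to 15 in NECs and 1 to 3 shared, SALL2 had 0 to 5, 3 to 4 and 0 to 0, SALL3 had 1 to 2 and 5 to 8, and 5185 to 6911 baits had more in NECs and 4672 to 6644 more in ESCs. The causes were not tested, except that a single threshold admits more genes and a higher score fewer PIRs. Across the tested genes, the log2 CPM difference between replicates 1 and 2 in ESCs correlated with that in NECs at r = 0.057. With 2 replicates in each group this correlation cannot decide whether same-numbered replicates belong together. The labels do not state that they share a batch, so the replicate numbers were not taken as pairing. With the replicate block the log2 fold changes of SALL1, SALL2 and SALL3 were 1.52, 0.67 and -1.41. The calls over all genes were then 1987 higher and 1711 lower. Unknown read numbers limit what an absent call says.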
